A study of Mus musculus with 62 samples.

Results

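Gpx4 and Selenop are a pair of mouse selenoprotein genes whose mRNAs were followed through RNA-seq, Ribo-seq and Disome-seq of the heart and through RNA-seq and Ribo-seq of cultured myoblasts. They were chosen by their identifiers in the GENCODE M21 annotation, with every isoform kept, which gave 3 transcripts of Gpx4 and 2 of Selenop, or 5 of the 23877 transcripts in the count table (2 of 10476 named genes). All 23662 transcripts matched to that annotation lie on the plus strand, so gene ranks, shares and lists below cover that strand only. Hearts came from 4 wild-type male C57BL/6J mice (Rpl3l+/+, WT) and 4 mice homozygous for a CRISPR-Cas9 deletion of Rpl3l exon 2 in every tissue (Rpl3l-/-, Rpl3l KO), all 10 weeks old. Myoblasts were C2C12 cells, an established mouse line, infected with an empty retrovirus (control) or a retrovirus that encodes mouse RPL3 (RPL3 OE) or RPL3L (RPL3L OE), with 3 cultures of each. RPL3L is the paralog of the large-subunit ribosomal protein RPL3 that is found in heart and skeletal muscle.

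Selenoproteins carry selenocysteine, which is inserted at UGA, a codon that ends translation in other mRNAs. Decoding it needs a hairpin in the untranslated end of the mRNA (SECIS), the protein SECISBP2 that binds the hairpin, a dedicated elongation factor and a dedicated tRNA. GPX4 is the glutathione peroxidase that reduces lipid hydroperoxides in membranes and restrains ferroptosis, and it uses its single selenocysteine in catalysis. SELENOP is secreted, mainly by the liver, carries several selenocysteines and delivers selenium to other tissues through receptors such as LRP8.

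The codons that set these mRNAs apart are shown with 12 bases on each side, from the mouse genome build GRCm38 on the plus strand, 5′ to 3′, with the named UGA (TGA in DNA) in capitals. The Gpx4 window lies at chr10:80054725-80054751, and the Selenop windows lie at chr15:3274836-3274862, chr15:3279330-3279356 and chr15:3279684-3279710.
Gpx4 selenocysteine codon: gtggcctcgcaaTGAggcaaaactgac
Selenop first selenocysteine codon: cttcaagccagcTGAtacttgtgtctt
Selenop second selenocysteine codon: cacttagagagcTGAgacaccacagca
Selenop last selenocysteine codon: aggaagtgaaaaTGAcattcaaactaa
In Gpx4 the codon is number 73 of the 197 codons of Gpx4-202, the form with the mitochondrial presequence. In Selenop-201 there are 10 such codons among 380, the first at codon 59, the second at codon 259 and the last at codon 377. The window of the last also holds the selenocysteine codon 375, in lower case, and ends with the TAA stop codon. Every in-frame TGA of either frame, 1 in Gpx4 and 10 in Selenop, is marked as selenocysteine in the annotation. The same mRNAs end at a different stop codon, shown in capitals in the next windows, at chr10:80056204-80056230 and chr15:3279696-3279722.
Gpx4 stop codon: ccgtgctatctcTAGctagccctacaa
Selenop stop codon: tgacattcaaacTAAattatttaaaac

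**Figure D1:**
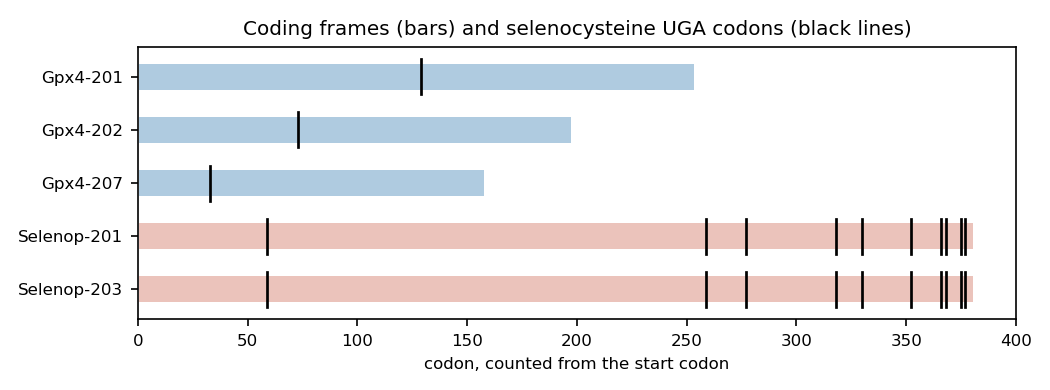
Coding frames of the 5 transcripts, in codons from the start codon, with selenocysteine codons as black lines. Gpx4 has 1 and Selenop has 10, of which 9 lie in the last part of the frame, from codon 259 on.

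Total counts per library, with 1 line per transcript, were 3594696 to 22425296 in heart RNA-seq and 1606700 to 3192090 in heart Ribo-seq, 7647102 to 29746110 and 3167026 to 6093268 in C2C12, and 39016 to 175747 per mouse in Disome-seq. Levels are given as CPM, counts scaled to a common library size, with library sizes scaled by TMM within an assay. Rpl3l-202, the deleted gene, had 401 to 516 CPM of the library total in WT heart RNA-seq and 24.4 to 37 in Rpl3l KO, and 2000 to 2050 in RPL3L OE C2C12 against 0.168 to 0.572 in the control cultures. The 5 cardiomyocyte markers in the table summed to 49500 to 65500 CPM in WT hearts and 49400 to 69900 in Rpl3l KO hearts, and to 175 to 185 in control C2C12. Of the 4 myoblast markers in the table, Myod1 and Cdh15 had at most 3 counts in any heart. Summed, the 4 were at 2330 to 2620 CPM in WT hearts and 2140 to 2600 in Rpl3l KO hearts. In control C2C12 the sum was lower, at 540 to 561 CPM. Fat and airway markers differed among hearts in both genotypes, from 79.8 to 1290 and from 1.08 to 1990 CPM. The airway markers also set the numbering of 2 KO hearts apart between assays: RNA-seq libraries 2 and 3 held 15 and 44705 counts of them, and Ribo-seq libraries 2 and 3 held 8014 and 1. The fits use the genotype and not the number, except where the number is a block.

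The first comparison asked whether the mRNA, the ribosome footprints or the collided ribosomes of Gpx4 and Selenop differ in the heart without RPL3L. No transcript of either gene passed the test in any heart readout. Gpx4-202 mRNA stood at 1010, 1190, 981 and 1190 CPM in the 4 WT hearts. In the Rpl3l KO hearts it stood at 1020, 1470, 1080 and 1010 CPM. The groups overlapped, and 1 KO heart was above all others. The means were 1090 ± 111 and 1140 ± 217 (SD, n = 4 each), and the log2 fold change was 0.06 (SE 0.13, 95% interval -0.22 to 0.34, edgeR adjusted p = 1). Without that heart, Rpl3l KO replicate 2, it was -0.08 (edgeR adjusted p = 1). A bulk value cannot separate fewer cells of a type from less RNA per cell. Of all 15394 transcripts tested, 0.013% were called.

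Selenop-201 mRNA was at 429, 422, 530 and 411 CPM in WT hearts. It was at 455, 451, 480 and 445 CPM in Rpl3l KO hearts. All KO values lay between the lowest and the highest WT value. The log2 fold change was 0.02 (SE 0.11, 95% interval -0.21 to 0.26, edgeR adjusted p = 1). Without WT replicate 3, the highest library, it was 0.11 (edgeR adjusted p = 0.999). Alb, Apoa1 and Apob, which mark hepatocytes, the main source of SELENOP, had at most 3 counts in every heart, and the 4 hepatocyte markers in the table summed to 0.234 to 2.28 CPM.

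Ribosome footprints gave the same picture. Gpx4-202 had 598, 585, 758 and 644 CPM of footprints in WT hearts and 571, 657, 719 and 694 in Rpl3l KO hearts. Selenop-201 had 336, 351, 394 and 364 CPM in WT and 306, 351, 315 and 365 in KO. Both genes overlapped between genotypes, and Selenop had its highest library in WT and its lowest in KO. The log2 fold change of Gpx4 was 0.04 (SE 0.10, 95% interval -0.18 to 0.26, edgeR adjusted p = 0.897). That of Selenop was -0.11 (SE 0.09, 95% interval -0.30 to 0.08, edgeR adjusted p = 0.566), among 12695 transcripts of which 0.748% were called.

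Translational efficiency (TE), the footprints relative to mRNA, was tested as an interaction of genotype and assay. Its log2 difference between Rpl3l KO and WT was -0.02 for Gpx4 (SE 0.18, 95% interval -0.40 to 0.35, edgeR adjusted p = 0.997). It was -0.14 for Selenop (SE 0.14, 95% interval -0.43 to 0.16, edgeR adjusted p = 0.922). None of 12483 transcripts was called by edgeR (0%), although 796 had an unadjusted p under 0.05 and DESeq2 called 2 higher and 18 lower. The intervals leave room for changes of either gene in either direction that these libraries could not show.

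Disome-seq sequences the fragments protected by 2 collided ribosomes and was shallow for these genes. Gpx4-202 had 41, 15, 32 and 15 disome counts in the WT mice, or 270, 351, 304 and 364 CPM. In the KO mice it had 61, 55, 23 and 6 counts, or 351, 582, 464 and 152 CPM. The KO values spread on both sides of the WT range. Selenop-201 had 23, 13, 42 and 14 counts in WT (151, 304, 399 and 339 CPM) and 44, 11, 7 and 12 in KO (253, 116, 141 and 303 CPM). The log2 fold change was 0.32 for Gpx4 (95% interval -0.46 to 1.10) and -0.53 for Selenop (95% interval -1.40 to 0.33), with an edgeR adjusted p of 0.934 for each. Disomes relative to single-ribosome footprints differed by 0.32 for Gpx4 (95% interval -0.35 to 1.00, edgeR adjusted p = 0.771) and -0.39 for Selenop (95% interval -1.15 to 0.37, edgeR adjusted p = 0.754). The Selenop values moved with single libraries: without WT replicate 3 they were -0.22 for disomes and -0.06 relative to single ribosomes, without KO replicate 2 they were -0.25 and -0.09, and without WT replicate 1 they were -0.77 and -0.66. Of 1365 transcripts, 0% were called by edgeR in either comparison, with 56 and 123 at an unadjusted p under 0.05. DESeq2 called 0 in Disome-seq, and 8 higher and 17 lower in disomes relative to single ribosomes.

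**Figure D2:**
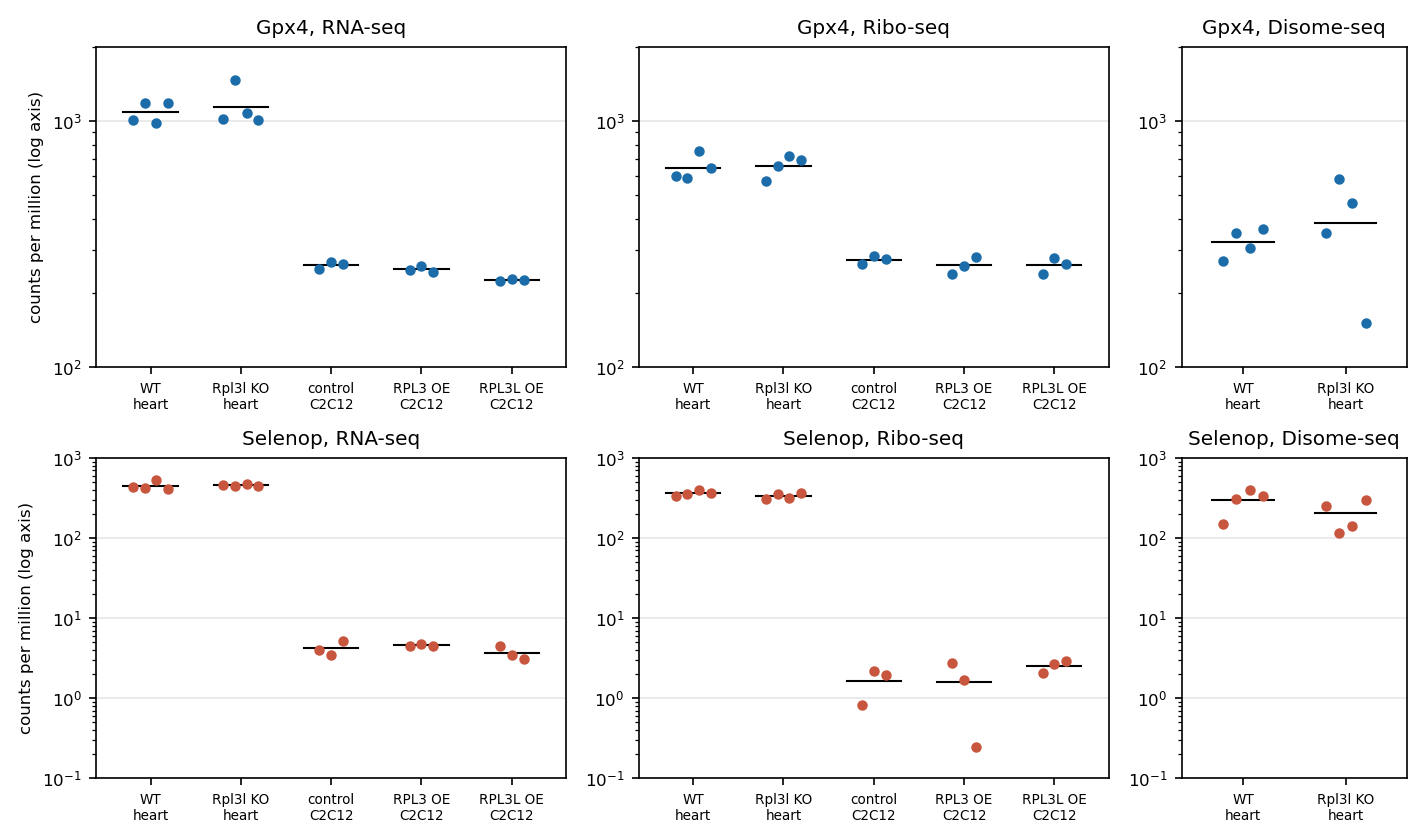
CPM of Gpx4-202 (top) and Selenop-201 (bottom) on log axes, 1 point per library (per mouse in Disome-seq), with bars at group means. The heart genotypes overlap in every assay, Gpx4 RNA is lowest in RPL3L OE among the C2C12 groups, and all C2C12 libraries of Selenop lie below all heart libraries.

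Gpx4 was among the most abundant of the measured selenoprotein mRNAs of the heart. Per kilobase of transcript, its RNA-seq level in WT hearts was 1140 ± 116 CPM (SD, n = 4), ahead of Gpx3, the secreted glutathione peroxidase, at 341 and Selenop at 222 ± 27.5. These were the 3 highest by RNA level in WT hearts, of the 15 selenoprotein genes measured in both assays. By footprints per kilobase of coding length, the selenoprotein Msrb1 (366) stood ahead of Selenop (317) in WT hearts. In coding-length terms Gpx4 stood at percentile 99.1 and Selenop at percentile 95.7 of 5274 plus-strand genes by RNA level. By footprints they stood at 98.5 and 94.5. The supply genes highest in the WT heart were Selenbp1 at 125, Pstk, the kinase that prepares the charged tRNA for selenium, at 42.5 and Selenbp2 at 29.9 CPM per kilobase.

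Per kilobase of transcript, Gpx4 exceeded Selenop by 5.12 times in WT heart RNA (range over hearts 3.88 to 6.08) and by 3.75 times in WT footprints (3.49 to 4.04). In Rpl3l KO hearts the ratios were 5.25 and 4.15. Both mRNAs carried few footprints for their RNA level: the log2 ratio of Ribo-seq to RNA-seq in WT hearts was -0.76 for Gpx4, at percentile 14.1 of 5377 genes, and -0.31 for Selenop, at percentile 23.9, while the median over these genes was 0.41. The ratio of disomes to footprints was at percentile 11.9 of 640 genes for Gpx4 and at percentile 37.5 for Selenop. These percentiles describe the libraries and carry no test.

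The genes whose RNA pattern over the 17 RNA-seq libraries lay nearest to Gpx4, by root mean square difference of mean-centred log2 CPM, were Ndufa7 (0.0967), Gm9803 (0.112) and Ndufa12 (0.112), against a median of 1.34 over 5535 genes. Ndufa7 and Ndufa12 encode subunits of mitochondrial complex I. For Selenop the nearest were Dcn (0.201), a fibroblast matrix gene that also stands in the fibroblast marker list, an unmatched transcript, ENSMUST00000239269.1 (0.238), and Mpped2 (0.256), against a median of 3.44. The 7 fibroblast markers in the table did not share the pattern as a sum. They were at 1310 to 1700 CPM in WT hearts, 1410 to 1420 in control C2C12 and 2030 to 2040 with RPL3 OE. The 17 libraries span hearts and C2C12.

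The second comparison asked whether overexpression of either paralog moved these mRNAs in C2C12. Gpx4 RNA fell with RPL3L OE. Gpx4-202 was at 250, 267 and 264 CPM in control cultures, at 249, 259 and 245 with RPL3 OE and at 225, 228 and 226 with RPL3L OE. The 3 RPL3L OE cultures lay below all 6 others, whereas control and RPL3 OE overlapped. Relative to control, the log2 fold change with RPL3L OE was -0.16 (SE 0.04, 95% interval -0.24 to -0.09, 0.892-fold, edgeR adjusted p = 0.000654), where 9.26% of 14432 transcripts were called and 4.61% were called lower. Relative to RPL3 OE it was -0.15 (SE 0.04, 0.898-fold, edgeR adjusted p = 0.000823), where 27% were called and 14.1% were called lower. When the hearts were put in the same fit, so that all 5 groups shared 1 estimate of the spread, the values were -0.20 (edgeR adjusted p = 1) and -0.15 (edgeR adjusted p = 0.732), and neither was called. RPL3 OE against control gave -0.01 (95% interval -0.08 to 0.06, edgeR adjusted p = 0.894), where 16.1% were called. The comparisons with control share its cultures, and those with RPL3L OE share its cultures too. Gpx4-201 and Gpx4-207, which share almost all reads with Gpx4-202, gave the same log2 fold changes of -0.16 and -0.15.

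The footprints of Gpx4 did not pass the test. They stood at 262, 283 and 275 CPM in control, 240, 259 and 281 with RPL3 OE and 240, 277 and 262 with RPL3L OE, so that the 3 groups overlapped. The log2 fold change was -0.07 for RPL3L OE against control (95% interval -0.18 to 0.05, edgeR adjusted p = 0.521; 11.1% of 13802 transcripts called). It was -0.07 for RPL3 OE against control (95% interval -0.19 to 0.04, edgeR adjusted p = 0.493; 10.6% called) and 0.01 for RPL3L OE against RPL3 OE (95% interval -0.11 to 0.12, edgeR adjusted p = 0.951; 18.8% called). The RNA change of -0.16 lies within the interval of the footprint change. The TE of Gpx4 differed by 0.10 between RPL3L OE and control (95% interval -0.04 to 0.23, edgeR adjusted p = 0.533; 2.09% of 13457 called) and by 0.16 between RPL3L OE and RPL3 OE (95% interval 0.02 to 0.30, unadjusted p in edgeR 0.0215, edgeR adjusted p = 0.451; 0.305% called). For RPL3 OE against control it was -0.06 (edgeR adjusted p = 0.873; 0.052% called).

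Selenop was near the limit of what C2C12 libraries resolve. Its RNA counts were 81, 63 and 190 in control, 45, 53 and 67 with RPL3 OE and 48, 40 and 39 with RPL3L OE, or 4.2 ± 0.864, 4.58 ± 0.146 and 3.71 ± 0.744 CPM (SD, n = 3 each). Footprint counts were 4, 8 and 7, then 15, 12 and 1, then 12, 17 and 21. The counts overlap in RNA after scaling, and a single RPL3 OE culture held 1 footprint. No Selenop comparison was called. The RNA changes were -0.19, 0.13 and -0.32 for RPL3L OE against control, RPL3 OE against control and RPL3L OE against RPL3 OE. The footprint change for RPL3L OE against control was 0.71 (95% interval -0.17 to 1.59, edgeR adjusted p = 0.324), and its TE change was 0.91 (95% interval -0.02 to 1.84, edgeR adjusted p = 0.346). For RPL3L OE against RPL3 OE the TE change was 0.92 (95% interval 0.05 to 1.80, unadjusted p in edgeR 0.0392, edgeR adjusted p = 0.524).

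**Figure D3:**
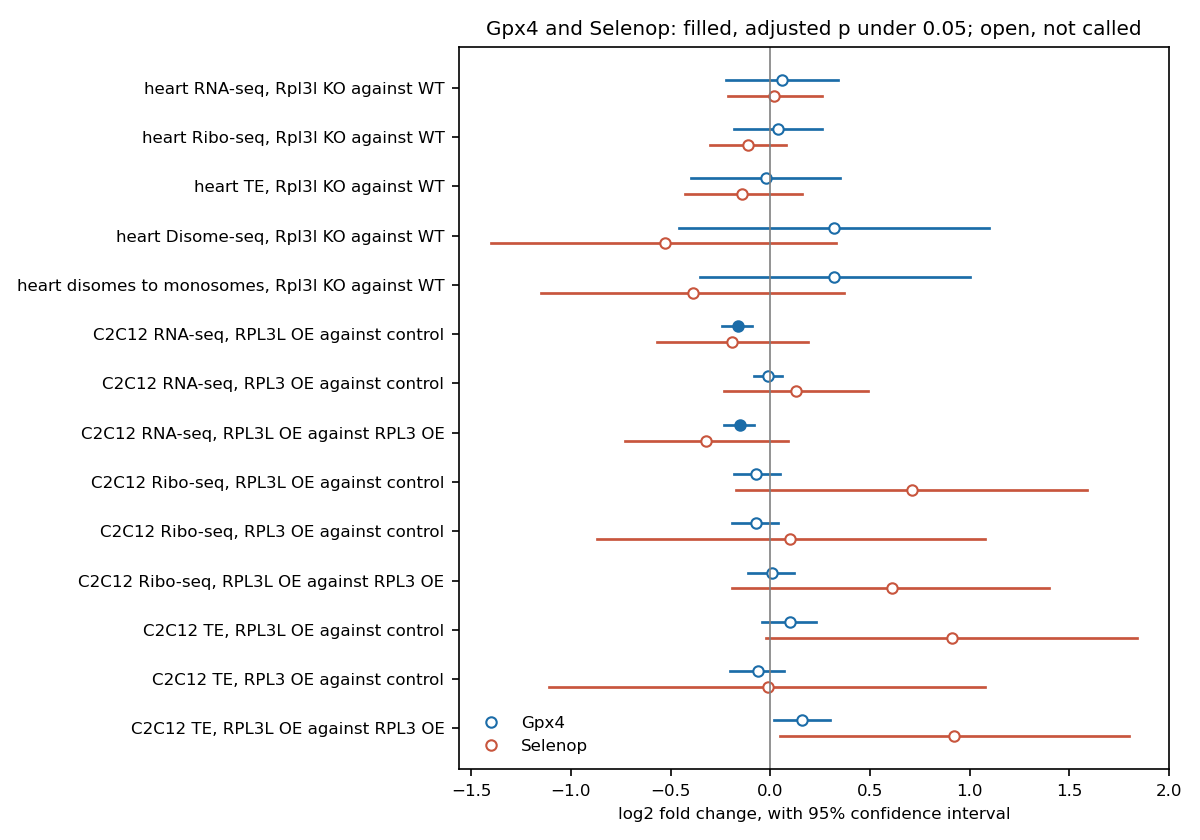
Log2 fold changes of Gpx4-202 (blue) and Selenop-201 (red) with 95% intervals in each comparison within heart and within C2C12. Filled points passed an adjusted p of 0.05 and are 2, both for Gpx4 RNA, at -0.16 and -0.15.

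Other selenoproteins and their supply genes were read from fixed lists, of which 16 of 24 selenoprotein genes and 11 of 20 genes of selenocysteine incorporation and selenium supply were in the table; the others were not analysed here. In the heart, 0 of 15 selenoprotein genes tested and 0 of 11 supply genes were called in RNA, footprints or TE, by edgeR over all transcripts. At an unadjusted p under 0.05 there were 1, 2 and 2 selenoproteins and 0, 4 and 1 supply genes, where 2.36%, 17% and 6.32% of all genes were, and the lists were not tested with DESeq2. The selenoprotein medians were -0.03, 0.11 and 0.02 beside 0.01, 0.02 and 0.00 over all genes. The selenoprotein with the largest RNA value was Msrb1, a methionine sulfoxide reductase, at 0.41 (edgeR adjusted p = 1). In C2C12 RNA, RPL3L OE against control had 3 of 15 selenoproteins lower and none higher: Gpx4 (-0.16), the thioredoxin reductase Txnrd1 (-0.10) and Selenof (-0.11), while 9.84% of 5845 genes were called. RPL3 OE against control had 3 lower, Txnrd3 (-0.34), Txnrd1 (-0.20) and Selenos (-0.24), and Selenom higher (0.21), with 17.4% of genes called. RPL3L OE against RPL3 OE had 3 lower, Gpx4 (-0.15), Selenot (-0.19) and Selenof (-0.16), and 2 higher, Txnrd3 (0.56) and Txnrd1 (0.10), with 27.5% called. The median over selenoproteins was -0.00, 0.05 and -0.07 in the 3 comparisons, and over all genes -0.00, -0.00 and -0.01.

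In footprints, 1, 3 and 3 selenoproteins were called in the same 3 comparisons, where 12.3%, 11.9% and 19.6% of 5713 genes were. Gpx1, the cytosolic glutathione peroxidase, was lower with RPL3L OE than in control (-0.18). Txnrd3 (-0.37) and Txnrd1 (-0.19) were lower and Selenom (0.35) higher with RPL3 OE than in control. Txnrd3 (0.56) and Gpx3 (0.84) were higher and Selenot (-0.16) lower with RPL3L OE than with RPL3 OE. Of the supply genes, Sephs1 RNA fell with RPL3 OE (-0.16), Nsun2 RNA was lower with RPL3L OE than with RPL3 OE (-0.09), Lrp8 footprints fell with RPL3L OE (-0.30), and Pstk footprints were higher with RPL3L OE than with RPL3 OE (0.49). No selenoprotein or supply gene was called in TE in C2C12, where 2.18%, 0.0908% and 0.272% of 5507 genes were. There, 1, 1 and 3 of 15 selenoproteins had an unadjusted p under 0.05 in edgeR, as had 16.1%, 8.35% and 9.22% of all genes.

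Of a list of 40 genes drawn up for glutathione and lipid peroxide defence, 17 were in the table and 16 were tested in C2C12 RNA. The others were not analysed here. The list is mixed and also holds genes that are not defence enzymes, such as Tfrc and Ptgs2, so its tallies do not measure defence. With RPL3L OE against control, 8 fell and 2 rose, with a median of -0.14 against -0.00 over all genes, of which 9.84% were called. Those that fell were the microsomal glutathione transferase Mgst1 (-0.84), the glutamate-cysteine ligase subunit Gclm (-0.39), heme oxygenase Hmox1 (-0.39), Prdx2 (-0.32), ferritin heavy chain Fth1 (-0.29), Aifm2 (-0.28), glutathione reductase Gsr (-0.24) and Prdx1 (-0.17). Those that rose were the transferrin receptor Tfrc (0.20) and Ptgs2 (0.53). In their footprints 6 fell and 2 rose, where 12.3% of genes were called. With RPL3 OE against control, 3 fell, Mgst1 (-0.70), Sod2 (-0.17) and Sod1 (-0.14), and 2 rose, Ptgs2 (1.43) and Fth1 (0.11), with 17.4% of genes called. With RPL3L OE against RPL3 OE, 7 were lower and 0 higher, among them Ptgs2 (-0.89) and Fth1 (-0.41), with 27.5% called. In heart RNA 0 of 15 were called by edgeR, 0 of them at an unadjusted p under 0.05, where 0.0155% of genes were called.

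The third comparison set the heart beside the myoblasts. WT hearts and control C2C12 differ in far more than RPL3L, and 82.6% of 16015 transcripts were called in RNA-seq (40.9% higher) and 82.9% of 14461 in Ribo-seq (40.8% higher), so the values describe these libraries. Gpx4 was higher in the WT heart by a log2 change of 2.07 in RNA (SE 0.12, 4.2-fold, edgeR adjusted p = 4.65e-13) and 1.24 in footprints (SE 0.09, 2.36-fold, edgeR adjusted p = 1.81e-11). Selenop was higher by 6.70 in RNA (SE 0.15, 104-fold, edgeR adjusted p = 9.15e-20) and 7.82 in footprints (SE 0.20, 226-fold, edgeR adjusted p = 1.44e-20). With library totals in place of TMM, the median of all transcripts moved from -0.05 to -0.79 in RNA and from -0.05 to -0.47 in footprints, the share of called transcripts that were higher went from 49.5% to 33.9% and from 49.2% to 37.8%, and Gpx4 was at 1.32 and 0.82 and Selenop at 5.97 and 7.40, so each stayed above C2C12. Each heart group lay above each C2C12 group for both genes. In this fit of all 5 groups, no pair within the 2 heart groups or within the 3 C2C12 groups was called, Gpx4 RNA of control against RPL3L OE included (0.20, 95% interval -0.04 to 0.45, edgeR adjusted p = 1); there the spread is shared with the hearts. Among 15 selenoproteins, 9 were higher and 5 lower in heart RNA (84% of 6604 genes called) and 7 higher and 6 lower in footprints (84.1% of 6106).

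Per kilobase of transcript, Gpx4 exceeded Selenop by 130 times in control C2C12 RNA (range 108 to 163) and 348 times in footprints (270 to 678), and by coding length Selenop RNA was at percentile 15.3 and its footprints at percentile 3.3 of 5405 genes, where Gpx4 was at 97.4 and 96.2. The 4 of 12 macrophage markers in the table summed to 132 to 180 CPM in hearts and at most 0.809 in C2C12. The 3 of 7 endothelial markers summed to 177 to 255 and at most 1.58. Cardiomyocyte, myoblast, fat, airway and blood sums were also higher in every heart than in any C2C12 culture. Fibroblast markers summed to 1310 to 1700 in WT hearts, 1200 to 1980 in Rpl3l KO hearts and 1410 to 2040 in C2C12. The part of these cells in the level of Selenop was not tested.

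Gpx4 and Selenop differed in opposite directions when footprints were taken relative to RNA between heart and C2C12. The TE of Gpx4-202 was lower in the WT heart by -0.90 on the log2 scale (SE 0.15, 95% interval -1.21 to -0.60, 0.535-fold, edgeR adjusted p = 6.68e-06), and that of Selenop was higher by 1.07 (SE 0.35, 95% interval 0.35 to 1.79, 2.1-fold, edgeR adjusted p = 0.0118). This comparison was added after the values were seen, and 49% of 14220 transcripts were called, 3264 higher (23%) and 3705 lower (26.1%), with a median of -0.05. Without control C2C12 replicate 1 the value of Selenop was 0.73 (edgeR adjusted p = 0.137) and without replicate 3 it was 1.02 (edgeR adjusted p = 0.0507), and its 3 control libraries held 4, 8 and 7 footprints. With library totals the values were -0.51 and 1.45, beside a median of 0.33. Of 15 selenoproteins, 5 were higher and 7 lower: Selenoi (1.45), Gpx3 (1.43), Selenop, Selenot (0.80) and Txnrd1 (0.35) were higher, and Selenok (-1.88), Selenom (-1.30), Selenoo (-0.97), Gpx4, Gpx1 (-0.71), Txnrd2 (-0.68) and Msrb1 (-0.57) were lower.

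**Figure D4:**
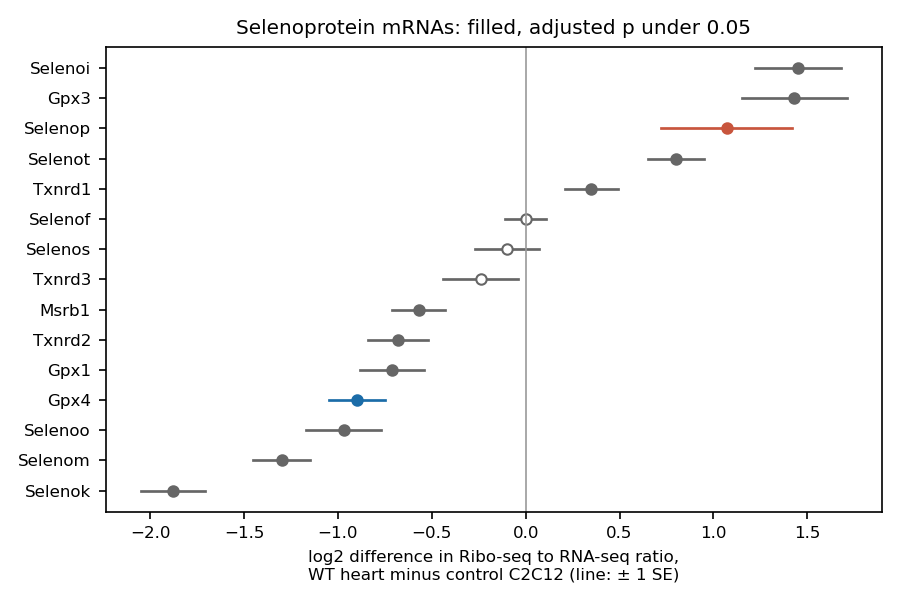
Log2 difference in the Ribo-seq to RNA-seq ratio between WT heart and control C2C12 for 15 selenoprotein genes, with lines of ± 1 SE. Gpx4 (blue, -0.90) sits with the 7 lower genes and Selenop (red, 1.07) with the 5 higher genes, and open points did not pass an adjusted p of 0.05.

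The 3 Gpx4 transcripts differ in where their coding frame starts. The windows that open with the start codons, in capitals, lie at chr10:80054049-80054075 for Gpx4-201, chr10:80053632-80053658 for Gpx4-202 and chr10:80054550-80054576 for Gpx4-207.
Gpx4-201 start: ATGggccgcgcggccgcccgcaagcgg
Gpx4-202 start: ATGagctggggccgtctgagccgctta
Gpx4-207 start: ATGcacgaattctcagccaaggacatc
Gpx4-202 has 120 coding bases that Gpx4-207 lacks, 84 of them in its first coding exon, and Gpx4-201 has 288, 252 of them in its own first coding exon. The other 36 bases lie in the second coding exon of both. In RNA-seq the count of Gpx4-202 was within 35 counts of that of Gpx4-207 in every library. Isoforms share reads, so near-equal RNA counts do not measure how much mRNA of each form was present. Whether the mRNA forms differ between heart and C2C12 cannot be read from these counts. Its excess over Gpx4-207 in footprints was 17.5% to 23.1% in WT hearts and 18.1% to 22.1% in Rpl3l KO hearts, but 4.45% to 5.44% in control C2C12, 3.86% to 4.37% with RPL3 OE and 4.19% to 5.58% with RPL3L OE. Heart and C2C12 did not overlap, while WT and Rpl3l KO hearts did. Among C2C12 groups, RPL3L OE overlapped with both others, and RPL3 OE lay just below control. The excess of Gpx4-201 over Gpx4-207 was 14.6% to 18.4% in WT hearts and 15.5% to 18.6% in KO hearts, and 2.36% to 4.01% over all C2C12 libraries. Gpx4-202 exceeded Gpx4-201 by 2.51% to 3.93% in WT hearts, 2.25% to 3.46% in KO hearts and 1.42% to 3.01% in control C2C12. Most of the heart excess over Gpx4-207 was thus common to both longer forms. This pattern was noticed in the data and is given without a test. In Disome-seq the difference was at most 2 counts. Selenop-201 and Selenop-203, whose frames hold the same 380 codons, had identical counts in every library.

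**Figure D5:**
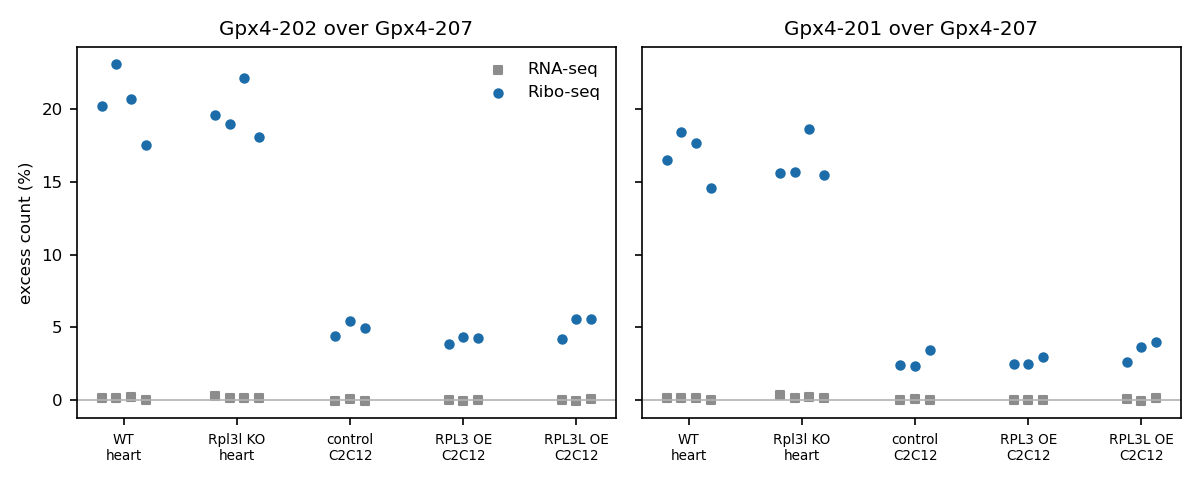
Excess of the Gpx4-202 (left) and Gpx4-201 (right) count over the Gpx4-207 count, in percent, 1 point per library, for RNA-seq (grey squares) and Ribo-seq (blue circles). RNA-seq lies near 0 throughout, and Ribo-seq is at 17.5% to 23.1% for Gpx4-202 in WT hearts and 4.45% to 5.44% in control C2C12. Isoforms share reads, so RNA-seq near 0 does not show equal mRNA of the forms.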

How the data were processed

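RNA-seq, Ribo-seq and Disome-seq counts per transcript were read from the count table that the authors deposited. Per the study's methods and the submitters' processing notes, adapters were removed with cutadapt, reads were aligned with STAR to the mouse transcriptome and genome (GRCm38.p6, mm10) with multiple mappings allowed, and reads were counted per transcript with featureCounts. Duplicates were collapsed by unique molecular identifiers in Ribo-seq and Disome-seq, and such a step is not given for RNA-seq in the sources used here, nor are tool versions. Isoforms therefore share reads, and intervals cover the spread between these libraries only. Each of the 23877 transcripts stood in 2 identical lines, of which 1 was used. The table was matched to GENCODE M21 by identifier (23662 matched, 215 not), and every matched transcript lies on the plus strand.

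Counts were tested with edgeR 4.0.16 (R 4.3.3), by the quasi-likelihood test with TMM scaling within an assay, a minimum mean count of 10 in each assay, two-sided tests and Benjamini-Hochberg adjustment over all transcripts tested, with a threshold of 0.05. TE and disomes relative to single-ribosome footprints were interactions of group and assay. The 2 Disome-seq libraries of a mouse were summed as 1 replicate; what separates them is not given in the sources used here. DESeq2 1.42.0 was the alternative tool, and the other alternatives were 2 filters, library totals, 1 transcript per gene, a replicate block, only the groups compared and each replicate left out. Lists took 1 transcript per gene. The members and lists were chosen with earlier results of these data known. Named were the members, the listed genes past the threshold or highest in the WT heart, and the 3 genes nearest in RNA pattern. Msrb1 was named after its value was seen, and so were genes of the defence list. Scripts were tested on simulated data. Same-numbered Ribo-seq and Disome-seq libraries deviated together in all 8 pairs (correlation 0.128 to 0.42). Same-numbered WT and KO Ribo-seq libraries, which are from different mice, reached 0.543 and 0.404 for numbers 2 and 3. Differently numbered pairs were not compared, so these values do not show which libraries share a mouse. The replicate block changed no call of either gene for disomes relative to single-ribosome footprints. No pair of libraries within a group agreed within sampling noise. The hearts are from separate mice, and the study describes its C2C12 cultures as biologically independent. m6A-seq and tRNA-seq were not used here.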

Additional observations from a re-analysis of the deposited data

Results flagged for a closer look

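Gpx4 RNA in Rpl3l KO heart library 2 was 1470 CPM, while the other 3 KO hearts lay between 1010 and 1080, a gap that was 0.85 of the group's range. Selenop RNA in WT heart library 3 was 530 CPM, while the other 3 WT hearts lay between 411 and 429, again a gap of 0.85 of the range. Both stand out by Dixon's 95% criterion for 4 samples, among 12 groups examined, where chance marks about 1 group in 20. The KO library had the highest cardiomyocyte sum of the 8 hearts (69900 CPM, others 49400 to 65500) and the lowest fat (79.8, others 137 to 1290), fibroblast (1200, others 1310 to 1980), macrophage (132, others 133 to 180) and endothelial sums (177, others 206 to 255), with airway markers at 1.11. Among the 4 WT hearts, the WT library had the lowest cardiomyocyte (49500, others 59100 to 65500), fibroblast (1310, others 1400 to 1700) and fat sums (137, others 293 to 632) and the highest macrophage (174, others 133 to 147) and endothelial sums (255, others 206 to 219). The part of these cells in the values was not tested.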

How the results depend on the processing

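Over the 34 results for Gpx4 and Selenop, 444 alternative values were computed, of which 418 kept their direction and side of the threshold, 4 lost a call and 22 changed sign, all of these 22 in results that were not called. The falls of Gpx4 RNA with RPL3L OE held in 13 of 14 alternatives against control (-0.19 to -0.14, edgeR or DESeq2 adjusted p 0.000297 to 0.00953) and in 13 of 14 against RPL3 OE (-0.17 to -0.12, 0.000823 to 0.0167). They were lost (-0.20 and -0.15) with all 5 heart and C2C12 groups in 1 fit, an alternative chosen after seeing the data, which also took the transcripts called from 671 higher and 665 lower to 2 and 9 against control, and from 1870 and 2030 to 259 and 146 against RPL3 OE. The other 2 lost calls were Selenop TE between heart and C2C12, without control C2C12 replicate 1 and without replicate 3. All its values with a replicate left out ran from 0.73 to 1.46. Sign changes under other settings were Gpx4 in heart Ribo-seq with library totals (-0.00), Gpx4 in C2C12 Ribo-seq for RPL3L OE against RPL3 OE with DESeq2 and with only the 2 groups (-0.00 each), and Selenop TE for RPL3 OE against control with library totals (0.03). With 1 replicate left out, log2 fold changes ran from -0.08 to 0.10 (Gpx4, heart RNA-seq), -0.02 to 0.11 (Selenop, heart RNA-seq), -0.02 to 0.12 (Gpx4, heart Ribo-seq), -0.11 to 0.12 (Gpx4, heart TE), -0.04 to 0.01 (Gpx4, C2C12 RNA-seq, RPL3 OE against control), -0.44 to 0.47 (Selenop, C2C12 Ribo-seq, RPL3 OE against control), -0.05 to 0.06 (Gpx4, C2C12 Ribo-seq, RPL3L OE against RPL3 OE) and -0.55 to 0.36 (Selenop, C2C12 TE, RPL3 OE against control). The causes were not tested. In TE, a left-out number was dropped from both assays at once. KO heart numbers 2 and 3 did not match between RNA-seq and Ribo-seq, so leaving out either may drop libraries of different mice. With library totals, levels per kilobase moved to 860 (Gpx4) and 170 (Selenop) in WT heart RNA-seq, 575 and 153 in WT heart Ribo-seq and 344 and 2.64 in control C2C12 RNA-seq, and to 326 for Gpx4 in control C2C12 Ribo-seq. By coding length, chosen after seeing the data, Gpx4 exceeded Selenop by 3.45 times in WT heart Ribo-seq.

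The replicate number as a block gave 2 transcripts called higher in heart Disome-seq, against 0 without it, and 42 against 19 in the TE of RPL3L OE against RPL3 OE. It changed no call of Gpx4 or Selenop. In the heart TE, all 4 WT pairs (0.351 to 0.458) and KO pairs 1 and 4 (0.701 and 0.555) of RNA-seq and Ribo-seq libraries deviated together, and KO pairs 2 and 3 did not (-0.651 and -0.719), so the numbers were not taken as pairs there. In C2C12 0 or 1 of 9 pairs deviated together. Counts over all transcripts also moved by over 1.5 times elsewhere: in heart Ribo-seq from 59 higher to between 3 (without WT heart replicate 3) and 115 (DESeq2) and from 36 lower to between 12 and 75 (429 and 357 with all 5 groups in 1 fit), in heart RNA-seq from 0 to 9 higher with DESeq2, in C2C12 RNA-seq for RPL3L OE against control from 665 to 395 lower with DESeq2, and in C2C12 Ribo-seq for the same groups from 743 to 300 higher and from 786 to 375 lower with DESeq2. In C2C12 TE, RPL3 OE against control went from 7 to 73 lower without RPL3 OE replicate 3, RPL3L OE against RPL3 OE from 19 higher to 0 when RPL3 OE replicate 2 was left out and to 46 when replicate 3 was, and RPL3L OE against control from 128 to 24 lower without RPL3L OE replicate 3 and from 153 to 301 higher with library totals. Heart Disome-seq went from 0 to 3 higher with no filter on the mean. Selenop could not be tested at a mean count of at least 50 in C2C12 Ribo-seq, C2C12 TE and Disome-seq. The planned m6A-seq alternatives were not run. Depth limits Selenop in C2C12 Ribo-seq, with a mean of 10.8 counts, and both genes in Disome-seq.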
